A study of Mus musculus with 64 samples.

Results

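Microglia of aged female mice were compared between 2 late ages, 24 and 16 months, in sorted cells of the bulk RNA-seq ageing series. The comparison took every PBS-treated female library of these ages, 3 at 24 months and 5 at 16 months, which are 8 of the 64 libraries in the table, and covered all 5647 measured genes. All 8 mice were C57BL/6J females, an inbred laboratory strain, with no engineered change of genotype named for them, and each mouse gave 1 library. Brains without cerebellum were dissociated with papain, and live CD11b-positive cells with low CD45 (7-AAD-negative) were sorted, so the gate and not a genetic label defined the cells. The mice came from more than 1 source and were kept in more than 1 facility, and the labels do not tie a mouse to its source.

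Microglia are the resident macrophages of the brain parenchyma. When they sense damage or microbial products they switch on NF-kB target genes, among them the cytokine IL-1 beta, its natural antagonist and the chemokines that recruit neutrophils, while type I and type II interferons switch on a separate set of genes through STAT factors. Immediate early genes such as Fos and Jun encode transcription factors that cells induce within minutes of a stimulus or stress.

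The deposited values were batch-adjusted FPKM, and they were compared as log2(value + 1) with limma over the 26 PBS-treated female libraries of 7 ages. A gene was called at a Benjamini-Hochberg adjusted p under 0.05 and a fold over 1.5. The 24-month libraries summed to 538414, 554459 and 511391, and the 16-month libraries to between 460347 and 498922, without overlap (p = 0.0357 in a two-sided exact permutation test over the 8 mice, which can give no smaller p). The median of all genes was therefore 0.16 higher at 24 months on the log2 scale, and −0.004 after median-ratio scaling, which divides each library by its median ratio to the mean profile. Without scaling 223 genes were called, 3.95% of those tested, with 182 higher (3.22%) and 41 lower (0.726%) at 24 months. After median-ratio scaling 124 were called, 2.2%, with 34 higher (0.602%) and 90 lower (1.59%). Because the directions depended on the scaling, the genes described here are the 75 called under both, 1.33% of those tested, of which 34 were higher (0.602%) and 41 were lower (0.726%). Of these 75 genes 69 also had no overlap between the 24- and 16-month libraries on either scale, 33 higher and 36 lower. Over all genes 361 were higher without overlap on both scales (6.39%) and 181 lower (3.21%). The count under both scalings depended on single mice. Without 24-month replicate 1, 2 or 3 it was 14, 34 and 35 (24, 75 and 116 without scaling). Leaving out 16-month replicate 2 gave 44 (140 without scaling) and leaving out replicate 4 gave 43 (99 without scaling). Among the 75 genes 10 were called under both scalings whichever of the 8 mice was left out, among them Abcc5, Cxcl2, Gm20594, Il1rn, Rgs3, Slc25a45, Srgn, Stoml1 and Tgm2. Il1b, Jun, Gas6, Fam213b, Vmn1r58 and Hsp90aa1 lost the call without 24-month replicate 1 alone, and Fosb, Hdc and Ccm2 without 24-month replicate 3 alone. At the other end, 5 of the 75, Ifi47 among them, were called in none of the 8 fits and 17 in 1 alone, among these Ndufv3, C5ar1, Cmklr1, Rab20, Gpr84 and Zfp65. Unless a scaled value is named, each log2 difference below is 24 minus 16 months on the deposited scale with its standard error.

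One feature of the files runs with age here. All 3 of the 24-month libraries hold some values between 0 and 1 (5, 2 and 25 of them), and none of the 5 libraries of 16 months does, although those of every other female age do. Age and whatever set these libraries apart in the authors' processing cannot be told apart in this comparison. In males the 24- and 16-month libraries all lack such values. Of the 3-month males 2 of 4 hold them, and between these 2 and the other 2 the difference (with minus without, scaled log2) had the sign of 24 minus 16 months for 31 of the 75 genes, 14 of 34 higher and 17 of 41 lower.

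**Figure D1:**
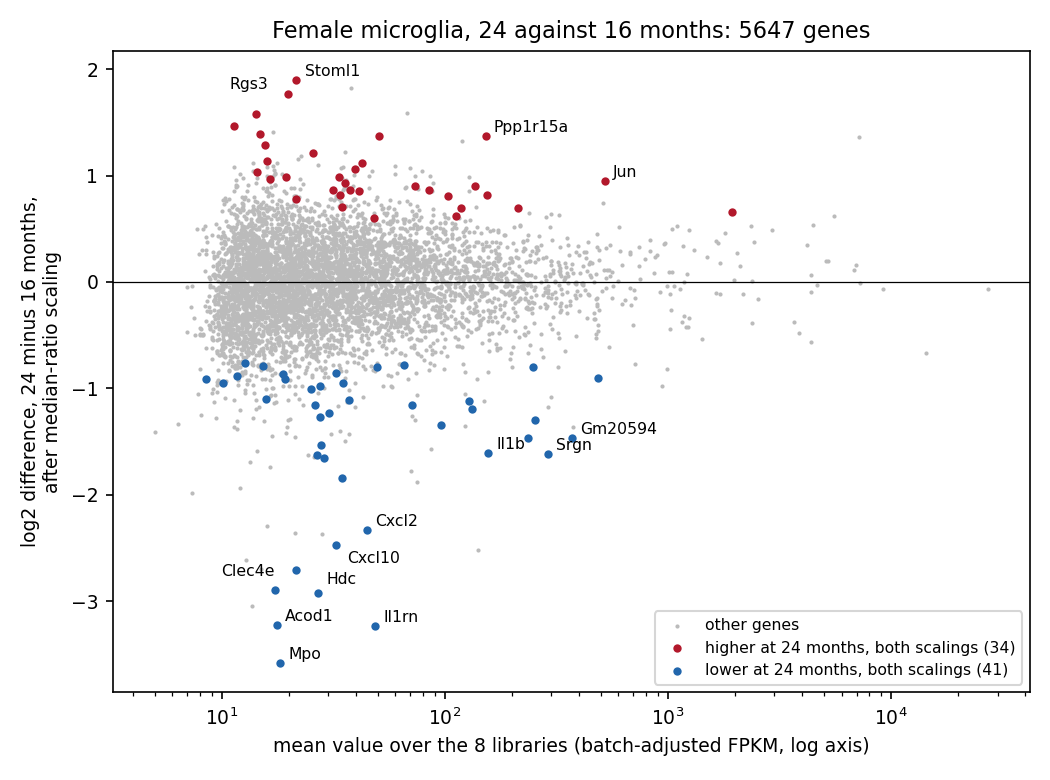
Scaled log2 difference (24 minus 16 months, vertical axis) against the mean value over the 8 libraries (batch-adjusted FPKM, log axis) for 5647 genes, 1 point each. The 34 genes higher under both scalings (red) lie between 0.60 and 1.90, and the 41 lower ones (blue) reach down to −3.58.

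Inflammatory genes were among the large falls. Of 32 measured NF-kB targets and cytokines, 5 were lower at 24 months under both scalings and none was higher. Over all genes 0.726% were lower and 0.602% higher in this way. The scaled difference was negative for 30 of the 32, and for 2847 of all 5647 genes. These shares apply beside the counts of every list below. The median scaled difference of the list was −0.66, beside −0.004 over all genes. Il1b, Il1rn, Cxcl2, Clec4e and Acod1 were the called members.

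Il1rn encodes the antagonist of the IL-1 receptor and lies on chromosome 2 of GRCm38 (24336860 to 24351491). It stood at 6, 4 and 5 in the 24-month mice, against 9, 118, 89, 22 and 138 in the 16-month mice. The groups did not overlap, but 16-month replicate 1 came close to the 24-month values and replicates 2, 3 and 5 stood far above. The log2 difference was −3.10 (standard error 0.58, limma adjusted p = 0.00411, scaled −3.24 with limma adjusted p = 0.00425). That standard error rests on the spread shared by the 7 ages. On the deposited scale the SD was 57.4 at 16 months and between 1 and 4.24 at the other ages.
Il1b, the cytokine that Il1rn opposes, stood at 70, 63 and 71 at 24 months, against 99, 325, 317, 123 and 180 at 16 months. Replicates 2 and 3 were the highest and replicate 1 the lowest of the 16-month mice. The log2 difference was −1.45 (standard error 0.30, limma adjusted p = 0.00933).
Cxcl2, a chemokine that attracts neutrophils through CXCR2, stood at 11, 12 and 12 at 24 months, against 23, 99, 96, 37 and 69 at 16 months. All 24-month values lay within 1 unit of each other and below every 16-month value. The log2 difference was −2.18 (standard error 0.37, limma adjusted p = 0.00194).
Clec4e, which encodes the pattern recognition receptor Mincle, stood at 4, 4 and 3 at 24 months, against 7, 50, 47, 20 and 38 at 16 months (log2 difference −2.57, standard error 0.57, limma adjusted p = 0.0167). Its neighbour on chromosome 6, Clec4d, a related C-type lectin, also fell by 2.79 on the log2 scale, but its groups overlapped.
Acod1, the enzyme that makes itaconate, stood at 2, 1 and 0 at 24 months, against 2, 50, 48, 3 and 35 at 16 months. It was called (log2 difference −3.15, standard error 0.81, limma adjusted p = 0.0331) although replicate 1 of 16 months equalled the highest 24-month mouse and replicate 4 lay 1 unit above it. Members of the list that were not called included Tnf, at 60, 50 and 66 at 24 months and 47, 72, 110, 86 and 153 at 16 months, and Nfkbia, the inhibitor that NF-kB induces against itself, with a scaled difference of −0.41 (limma adjusted p = 0.349).

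Interferon-stimulated genes were lower at 24 months as a list, with fewer calls. Of 46 measured members 2 were lower under both scalings (beside 0.726% of all genes) and none was higher. A negative scaled difference was found in 43, and the median was −0.67. Without overlap on either scale, 11 of the 46 (beside 3.21% of all genes) were lower and none higher. Cxcl10, an interferon-induced chemokine that binds CXCR3 on T cells, stood at 5, 8 and 9 at 24 months, against 43, 12, 51, 39 and 94 at 16 months. Its groups did not overlap, with 16-month replicate 2 nearest to the 24-month values (log2 difference −2.33, standard error 0.54, limma adjusted p = 0.0213). Ifi47, an interferon-inducible GTPase, stood at 15, 20 and 12 at 24 months, against 34, 31, 43, 28 and 38 at 16 months (log2 difference −1.12, standard error 0.32, limma adjusted p = 0.0442). Ifi30, a lysosomal thiol reductase, was called after scaling only (scaled −0.80, limma adjusted p = 0.0402).

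Of 20 chemokines and chemokine receptors 3 were lower under both scalings (beside 0.726% of all genes) and none higher (scaled median −0.50). Beside Cxcl2 and Cxcl10 this was Cmklr1, the receptor of chemerin, at 19, 19 and 17 at 24 months and 37, 35, 30, 32 and 32 at 16 months. The values within each age were tight and far apart between ages (log2 difference −0.82, standard error 0.22, limma adjusted p = 0.0403). Ccl4, a chemokine of activated macrophages, stood at 134, 190 and 245 against 278, 248, 553, 360 and 377 and was not called (limma adjusted p = 0.167).

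Promoters are shown for the 2 chemokines with the largest falls and for the rise of Ppp1r15a below, because their upstream sequence holds matches to motifs of factors that act in these pathways. The 250 bases before the RefSeq start were read on GRCm38 and searched on both strands for GGGNNNTTCC (an NF-kB motif), GAAANNGAAA (a motif of interferon-responsive elements) and TGACGTCA (the CRE motif of CREB and ATF factors). Matches are in capitals.
Cxcl2 (chr5:90903649-90903898, plus strand): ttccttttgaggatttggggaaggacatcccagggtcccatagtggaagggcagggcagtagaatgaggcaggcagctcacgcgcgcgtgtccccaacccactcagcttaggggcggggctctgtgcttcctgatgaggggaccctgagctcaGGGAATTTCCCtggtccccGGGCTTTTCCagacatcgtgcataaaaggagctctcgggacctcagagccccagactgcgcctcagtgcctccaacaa
Cxcl10 (chr5:92348890-92349139, minus strand): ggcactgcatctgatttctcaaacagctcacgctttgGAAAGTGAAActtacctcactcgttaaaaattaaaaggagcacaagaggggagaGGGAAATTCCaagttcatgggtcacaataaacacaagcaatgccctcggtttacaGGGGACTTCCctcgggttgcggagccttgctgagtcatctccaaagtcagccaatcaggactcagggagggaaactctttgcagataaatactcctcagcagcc
Ppp1r15a (chr7:45526269-45526518, minus strand): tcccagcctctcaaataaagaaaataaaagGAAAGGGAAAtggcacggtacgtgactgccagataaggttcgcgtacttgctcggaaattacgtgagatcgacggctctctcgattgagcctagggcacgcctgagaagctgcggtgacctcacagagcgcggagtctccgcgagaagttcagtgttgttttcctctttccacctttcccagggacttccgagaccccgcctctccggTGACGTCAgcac
In Cxcl2 the longer match is the NF-kB motif read on both strands in overlapping positions, and a further match follows nearer the start. Cxcl10 holds the interferon motif once and the NF-kB motif at 2 places. Ppp1r15a holds the interferon motif once and a CRE that ends 5 bases before its start. GGGNNNTTCC was held by 4.65% of all 32851 promoters, GAAANNGAAA by 2.98% and TGACGTCA by 1.55%. Of the 41 lower genes 32 had a promoter among these, and 4 of them (Cxcl2, Cxcl10, Il1rn and Mxd1) held the NF-kB motif, against 1 of 26 of the higher genes and 6.34% of the tested genes with a promoter. The interferon motif was held by 2 of the 32 lower genes (Cxcl10 and Srgn), by 3 of the 26 higher genes (Ccm2, Lrrc45 and Ppp1r15a) and by 3.81% of the tested genes. The CRE was held by 1 of the 26 higher genes, by none of the 32 lower genes and by 3.28% of the tested genes. These are matches of letters and not measured binding.

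Further falls lay outside these lists. Srgn, which encodes the granule proteoglycan serglycin, stood at 144, 155 and 108 at 24 months, against 251, 402, 518, 315 and 416 at 16 months. It had the smallest adjusted p among the falls (log2 difference −1.45, standard error 0.21, limma adjusted p = 0.000303). Tgm2, a transglutaminase that cross-links proteins, stood at 14, 17 and 11 at 24 months, against 38, 41, 56, 46 and 55 at 16 months. Unlike for Il1rn, the 16-month mice were even for Tgm2 (log2 difference −1.69, standard error 0.32, limma adjusted p = 0.00447). Hdc, the enzyme that makes histamine, stood at 6, 4 and 2 at 24 months, against 7, 58, 78, 25 and 37 at 16 months (log2 difference −2.79, standard error 0.61, limma adjusted p = 0.0152). Hcar2, the niacin receptor, stood at 15, 10 and 12 at 24 months, against 16, 49, 58, 21 and 42 at 16 months (log2 difference −1.38, standard error 0.35, limma adjusted p = 0.0321). In both, replicate 1 of 16 months lay next to the 24-month mice and replicates 2 and 3 were the highest.
Gm20594, a gene on chromosome 6 (79818031 to 79818364) with no role given here, stood at 167, 162 and 245 at 24 months, against 517, 658, 386, 473 and 352 at 16 months (log2 difference −1.30, standard error 0.21, limma adjusted p = 0.00107). Mxd1, a partner of MAX that opposes MYC, fell by 1.48, and Gcnt2, a glycosyltransferase, by 1.50 on the log2 scale. Receptors were among the falls as well. Gpr84, a receptor of medium-chain fatty acids, stood at 105, 106 and 137 at 24 months and between 157 and 454 at 16 months. C5ar1, the receptor of complement C5a, stood at 200, 127 and 111 against a range of 219 to 400. Lyn, a Src family kinase that acts downstream of immune receptors, stood at 175, 187 and 184 at 24 months, against 276, 375, 278, 299 and 208 at 16 months, a log2 difference of −0.63 (standard error 0.16, limma adjusted p = 0.0338). Actg1, the gamma actin of the cytoskeleton, Rab20, a small GTPase of phagosomes, and Id2, a regulator of differentiation, fell by 0.74, 1.18 and 1.03 on the log2 scale, each without overlap. Hsp90aa1, the inducible cytosolic HSP90, is named after its values were seen. It stood at 67, 87 and 86 at 24 months, against 165, 163, 165, 188 and 108 at 16 months (log2 difference −0.96, standard error 0.20, limma adjusted p = 0.0123).

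**Figure D2:**
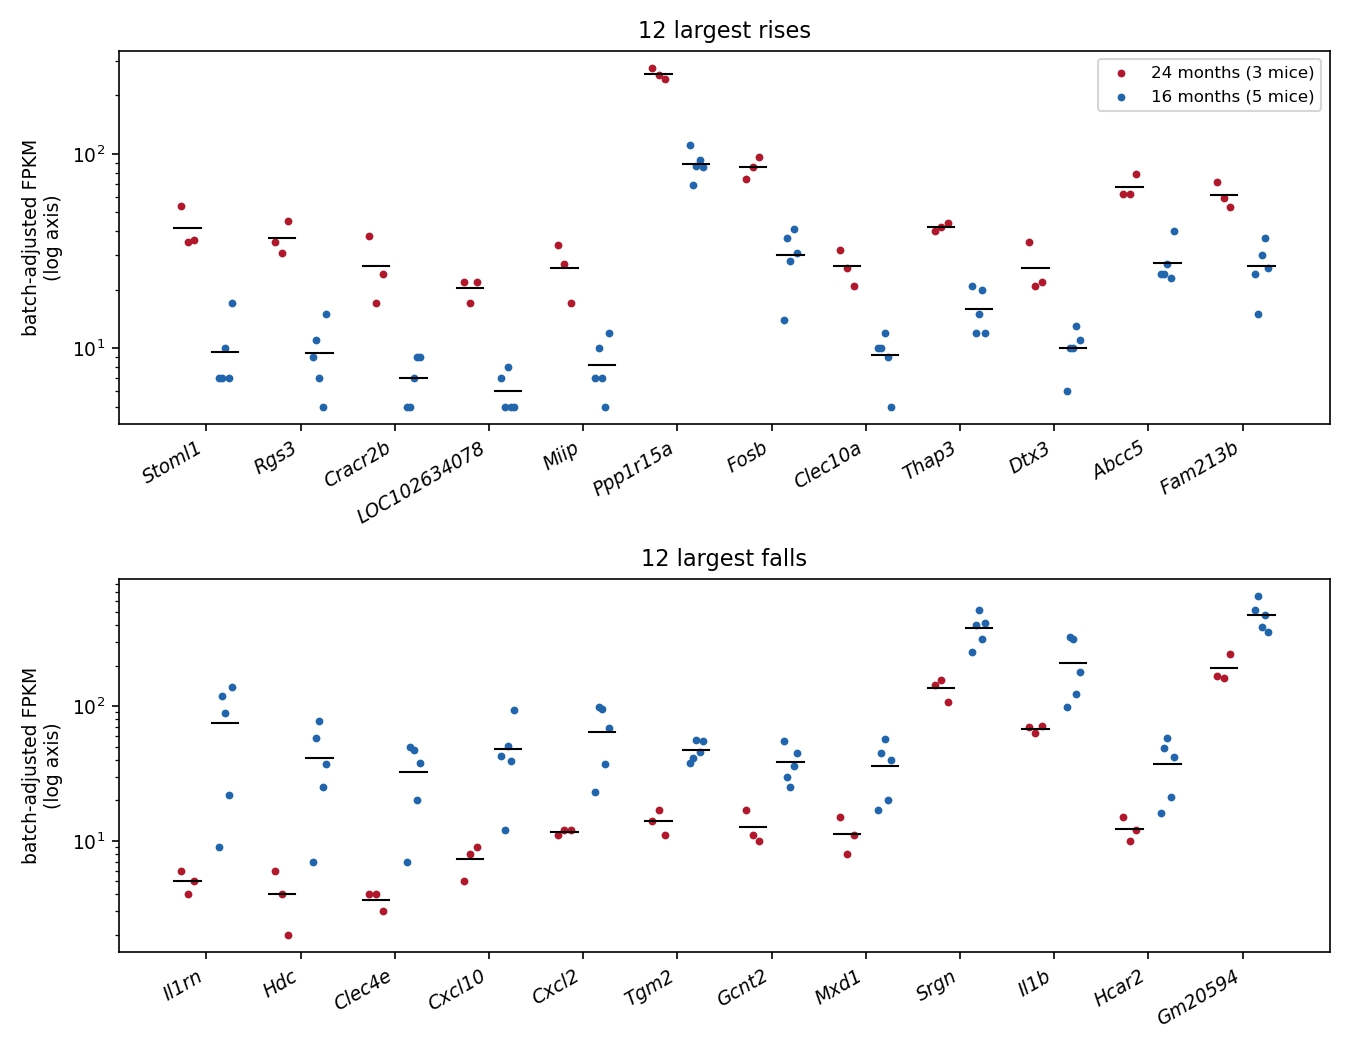
Values (batch-adjusted FPKM, log axis) of the 12 largest rises and the 12 largest falls in each mouse, with 24 months (red, 3 mice) left of 16 months (blue, 5 mice) for each gene and bars at the group means. No gene shown has overlapping groups, and the 16-month points of Il1rn, Hdc and Clec4e spread over more than the gap to 24 months.

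Markers of neutrophils and of monocytes and macrophages had negative scaled medians too, while those of border-associated macrophages, given below, had a positive one. The summed values of 15 measured neutrophil markers were 8644, 8141 and 3278 at 24 months, against 2726, 9033, 15670, 6605 and 12800 at 16 months. The 16-month replicates 2, 3 and 5, high for Il1rn, Cxcl2 and Clec4e, were also high for neutrophil markers, and 16-month replicate 1 was the lowest of all 8. The 24-month replicates 1 and 2 had larger sums than 16-month replicate 4. On the mean scaled log2 level of the 15 markers they were lower (6.49 and 6.16 against 6.80). Il1rn (6 and 4 against 22) and Cxcl2 (11 and 12 against 37) were also lower in these 24-month mice. Within the list 12 of 15 scaled differences were negative, and Mpo, the peroxidase of neutrophil granules, was called lower (0, 0 and 5 against 3, 17, 48, 22 and 51, limma adjusted p = 0.0282). S100a8, an abundant neutrophil gene, stood at 4611, 4262 and 1614 against 1514, 4720, 8234, 3273 and 6602 and was not called. The summed values of 9 monocyte and macrophage markers ranged from 265 to 907 at 24 months and from 349 to 1233 at 16 months. Their scaled median was −1.17, below that of every pathway list, with 6 negative and 3 positive scaled differences. Plac8 was called lower after scaling only (scaled −1.78, limma adjusted p = 0.0499). Nr4a1, also on the immediate early list, was called higher without scaling only. In bulk libraries fewer cells of a type and less RNA per cell cannot be told apart. Leaving out the 16-month replicates 2, 3 and 5, an alternative chosen after the data were seen, left 20 genes called under both scalings, 14 higher and 6 lower. Of the 75 genes 13 were called again, 8 higher and 5 lower. Il1rn then differed by −1.35 (limma adjusted p = 0.155), Il1b by −0.69, Cxcl2 by −1.25 (limma adjusted p = 0.089) and Srgn by −1.06 (limma adjusted p = 0.0354). The scaled median of the NF-kB list was −0.39 and that of the interferon list −0.38, while that of the neutrophil markers was 0.37 (11 of 15 positive), beside −0.54 with all mice. Only 2 mice of 16 months remained in that fit. The mice left out also had the highest 16-month values of Il1rn, Il1b, Cxcl2 and Srgn, so smaller falls were built into the choice. The part of neutrophils in these falls was not tested.

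**Figure D3:**
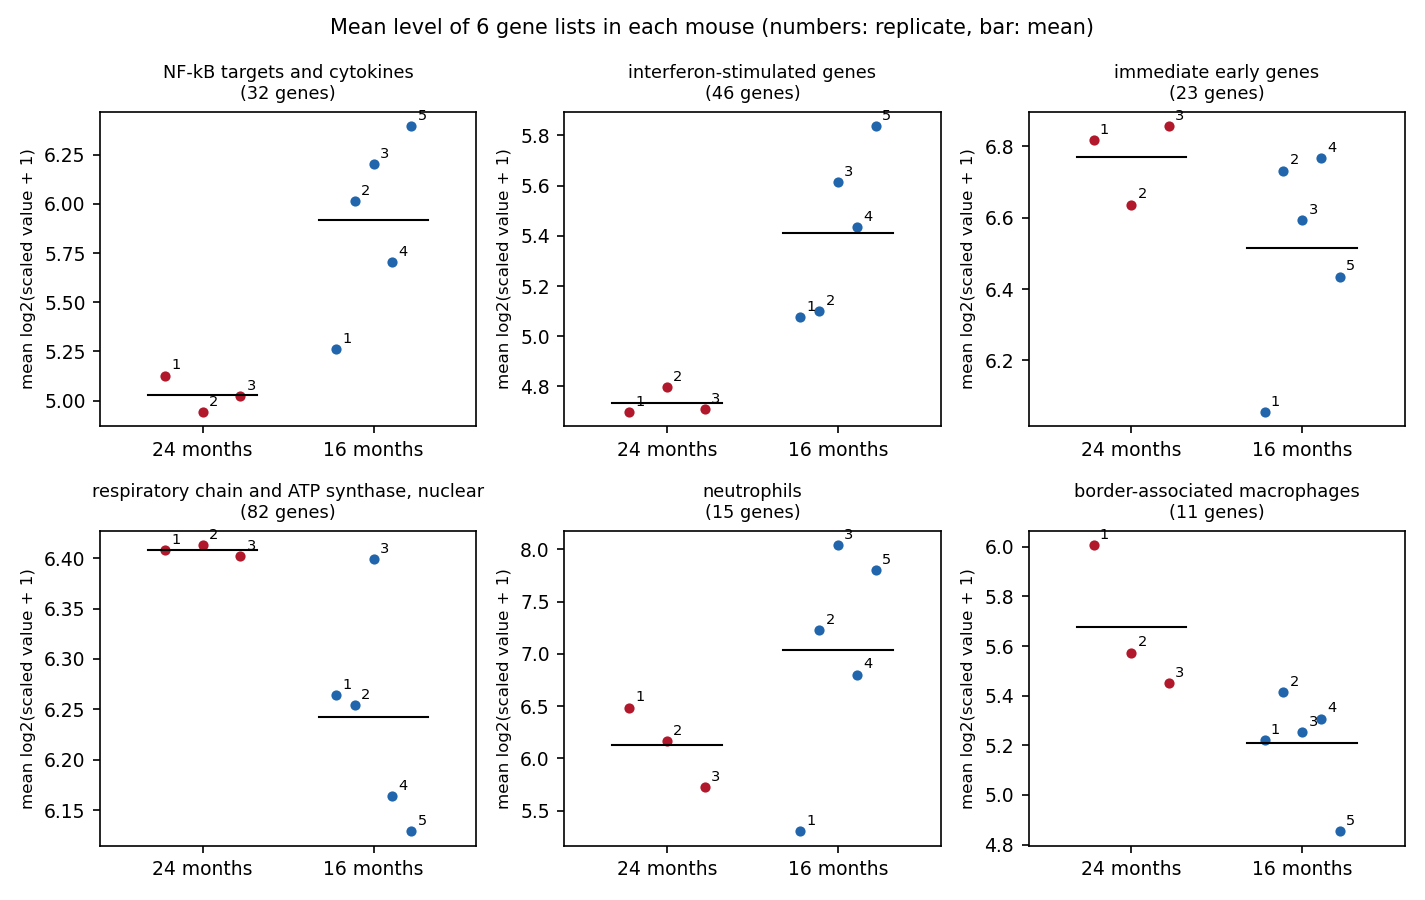
Mean of log2(scaled value + 1) over the genes of 6 lists in each mouse, 24 months (red) left of 16 months (blue), with replicate numbers beside the points and bars at the means. The NF-kB and interferon lists do not overlap between the ages, neutrophil markers do, and 16-month replicate 1 is the lowest of its age for the NF-kB, immediate early and neutrophil lists.

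Immediate early genes were among the rises. The paper cautions that warm enzymatic digestion of the brain may reactivate microglia after removal and alter their transcripts. Cells of both ages went through such a digestion, and its part in these rises was not tested. Of 23 measured members 3 were higher under both scalings (beside 0.602% of all genes) and none was lower. Without scaling 5 were higher (beside 3.22% of all genes), and the scaled median was 0.26. The scaled difference was positive for 16 members and negative for 7. The mean scaled log2 level of the list overlapped between the ages. It was 6.64 in 24-month replicate 2, below the 6.73 and 6.77 of 16-month replicates 2 and 4. Jun, an AP-1 subunit on chromosome 4 (95049036 to 95052222), stood at 915, 763 and 667 at 24 months, against 238, 431, 362, 428 and 370 at 16 months. Every 24-month mouse was well above the highest 16-month mouse (log2 difference 1.11, standard error 0.20, limma adjusted p = 0.00266). Fosb, its partner in AP-1, stood at 74, 85 and 96 at 24 months, against 14, 37, 28, 41 and 31 at 16 months (log2 difference 1.54, standard error 0.28, limma adjusted p = 0.00411). Atf3, a stress-induced transcription factor, stood at 168, 188 and 254 at 24 months, against 67, 108, 106, 115 and 88 at 16 months (log2 difference 1.07, standard error 0.21, limma adjusted p = 0.00852). Fos and Nr4a1, an orphan nuclear receptor, were called without scaling only, with scaled adjusted p-values in limma of 0.165 and 0.0702.
Ppp1r15a encodes GADD34, which directs protein phosphatase 1 to the translation factor eIF2 alpha and so ends the block of translation in stress. It stood at 277, 254 and 242 at 24 months, against 111, 69, 87, 93 and 85 at 16 months, and its lowest 24-month value was above every 16-month value by more than their whole range (log2 difference 1.54, standard error 0.30, limma adjusted p = 0.00527). The inducible HSP70 gene Hspa1a stood at 107, 142 and 146 against 50, 73, 53, 85 and 49, called without scaling (limma adjusted p = 0.0258) and not with it (0.062). Over the 50 listed heat shock proteins and chaperones none was called under both scalings, and the scaled median was −0.04. That list does not hold Hsp90aa1, which was called lower under both scalings as given above.

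The largest rise was that of Stoml1, a membrane protein of the stomatin family on chromosome 9 (58253160 to 58262524). It stood at 54, 35 and 36 at 24 months, against 7, 7, 10, 7 and 17 at 16 months, without overlap (log2 difference 2.06, standard error 0.26, limma adjusted p = 8.46e-05). Rgs3, a regulator that shortens signalling by G proteins, stood at 35, 31 and 45 at 24 months, against 9, 11, 7, 5 and 15 at 16 months (log2 difference 1.93, standard error 0.31, limma adjusted p = 0.00121). Gna15, a G protein alpha subunit, was at 215, 223 and 230 against 100, 133, 118, 85 and 134, a rise by 0.98 that was close to the same in each 24-month mouse. Abcc5, a transporter of organic anions and cyclic nucleotides, stood at 62, 62 and 79 at 24 months, against 24, 24, 27, 23 and 40 at 16 months (log2 difference 1.28, standard error 0.17, limma adjusted p = 0.000143). Slc25a45, a carrier of the mitochondrial family, stood at 106, 116 and 105 at 24 months, against 58, 47, 50, 48 and 55 at 16 months, the tightest groups among the rises (log2 difference 1.07, standard error 0.14, limma adjusted p = 8.46e-05).
Gas6, the ligand of the receptors Axl and Mertk in the uptake of apoptotic cells, stood at 200, 134 and 118 at 24 months, against 65, 77, 86, 72 and 74 at 16 months (log2 difference 0.97, standard error 0.18, limma adjusted p = 0.00411). Axl itself, at 65, 60 and 42 against 14, 39, 63, 46 and 43, was not called. Clec10a, a galactose-binding lectin of macrophages, stood at 32, 26 and 21 at 24 months, against 10, 10, 12, 9 and 5 at 16 months (log2 difference 1.45, standard error 0.30, limma adjusted p = 0.00933). It is also a marker of border-associated macrophages, and all 11 measured markers of these cells had a positive scaled difference. Their summed values were 934, 799 and 654 at 24 months and 429 to 593 at 16 months, overlapping after scaling (605.7 to 838.5 against 434.9 to 610.8), and Mrc1, the mannose receptor, was not called on its own (scaled limma adjusted p = 0.344). What part these cells had in the rise of Clec10a was not tested.
The remaining large rises had low values. Cracr2b, a regulator of calcium entry, Miip, LOC102634078, Thap3, Dtx3, a ubiquitin ligase of the deltex family, and Fam213b, a prostaglandin F synthase, rose by between 1.23 and 1.74 on the log2 scale, all without overlap.

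Genes of mitochondria lay slightly higher. Of 82 nuclear genes of the respiratory chain and ATP synthase 64 had a positive scaled difference (beside 2800 of all 5647 genes), and the median was 0.16. Without overlap on either scale, 14 were higher (beside 6.39% of all genes) and none lower. Ndufv3, a subunit of complex I, was the 1 member called under both scalings (beside 0.602% of all genes called higher). It stood at 124, 131 and 117 at 24 months against 85, 52, 59, 57 and 53 at 16 months (log2 difference 1.03, standard error 0.23, limma adjusted p = 0.0156). Of 68 mitochondrial ribosomal protein genes 47 had a positive scaled difference (median 0.21), with no call under both scalings. The 79 cytosolic ribosomal protein genes had no call under either scaling, and their median lay below that of all genes under both, at 0.08 without scaling and −0.09 with it.

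Few genes that mark the state of microglia were called. Of 30 homeostatic genes none was called under either scaling, with a median of 0.12 without scaling and −0.04 with it. P2ry12, the ADP receptor of homeostatic microglia, stood at 1394, 1900 and 1850 at 24 months, against 2419, 929, 989, 1190 and 1331 at 16 months (log2 difference 0.40, standard error 0.26, limma adjusted p = 0.338). The groups overlapped through 16-month replicate 1, which stood above all other mice. Tmem119, Cx3cr1 and Csf1r differed by between 0.17 and 0.34 without scaling, and Cx3cr1 by −0.0055 with every library at the same total. Sall1, the transcription factor that sets microglial identity, stood at 97, 85 and 103 against 30, 91, 23, 55 and 52 and was not called (limma adjusted p = 0.0961).
Of 26 genes of disease-associated microglia 20 had a positive scaled difference (median 0.32), and none was called after scaling. Apoe, the apolipoprotein of lipid transport, stood at 14150, 10480 and 10387 at 24 months, against 3678, 2225, 8628, 4675 and 3131 at 16 months. It was higher without overlap and was called without scaling (log2 difference 1.53, standard error 0.44, limma adjusted p = 0.0449) but not with it (1.36, limma adjusted p = 0.0859). Trem2, a lipid-sensing receptor, and Cd68, a lysosomal glycoprotein, behaved alike in this respect, with log2 differences of 0.67 and 0.69 and scaled differences of 0.50 and 0.53. Spp1, which encodes osteopontin, stood at 301, 441 and 359 against 72, 61, 571, 434 and 361, and Cst7, a cystatin, at 63, 71 and 60 against 17, 15, 108, 48 and 46. In both, 16-month replicates 1 and 2 were low and replicate 3 was above every 24-month mouse. Clec7a and Lpl also overlapped, with replicates 1 and 2 again the lowest.
All 8 MHC class II genes had a positive scaled difference (median 0.29), and none was called. Cd74, their invariant chain, stood at 7729, 8945 and 5957 at 24 months against 3516, 5263, 3789, 4045 and 5197 at 16 months, above without overlap (log2 difference 0.79, standard error 0.25, limma adjusted p = 0.0615). Of 16 MHC class I genes Tap2, a peptide transporter, was called without scaling only, and H2-D1 stood at 1605, 1499 and 1181 against 784 to 1345.

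**Figure D4:**
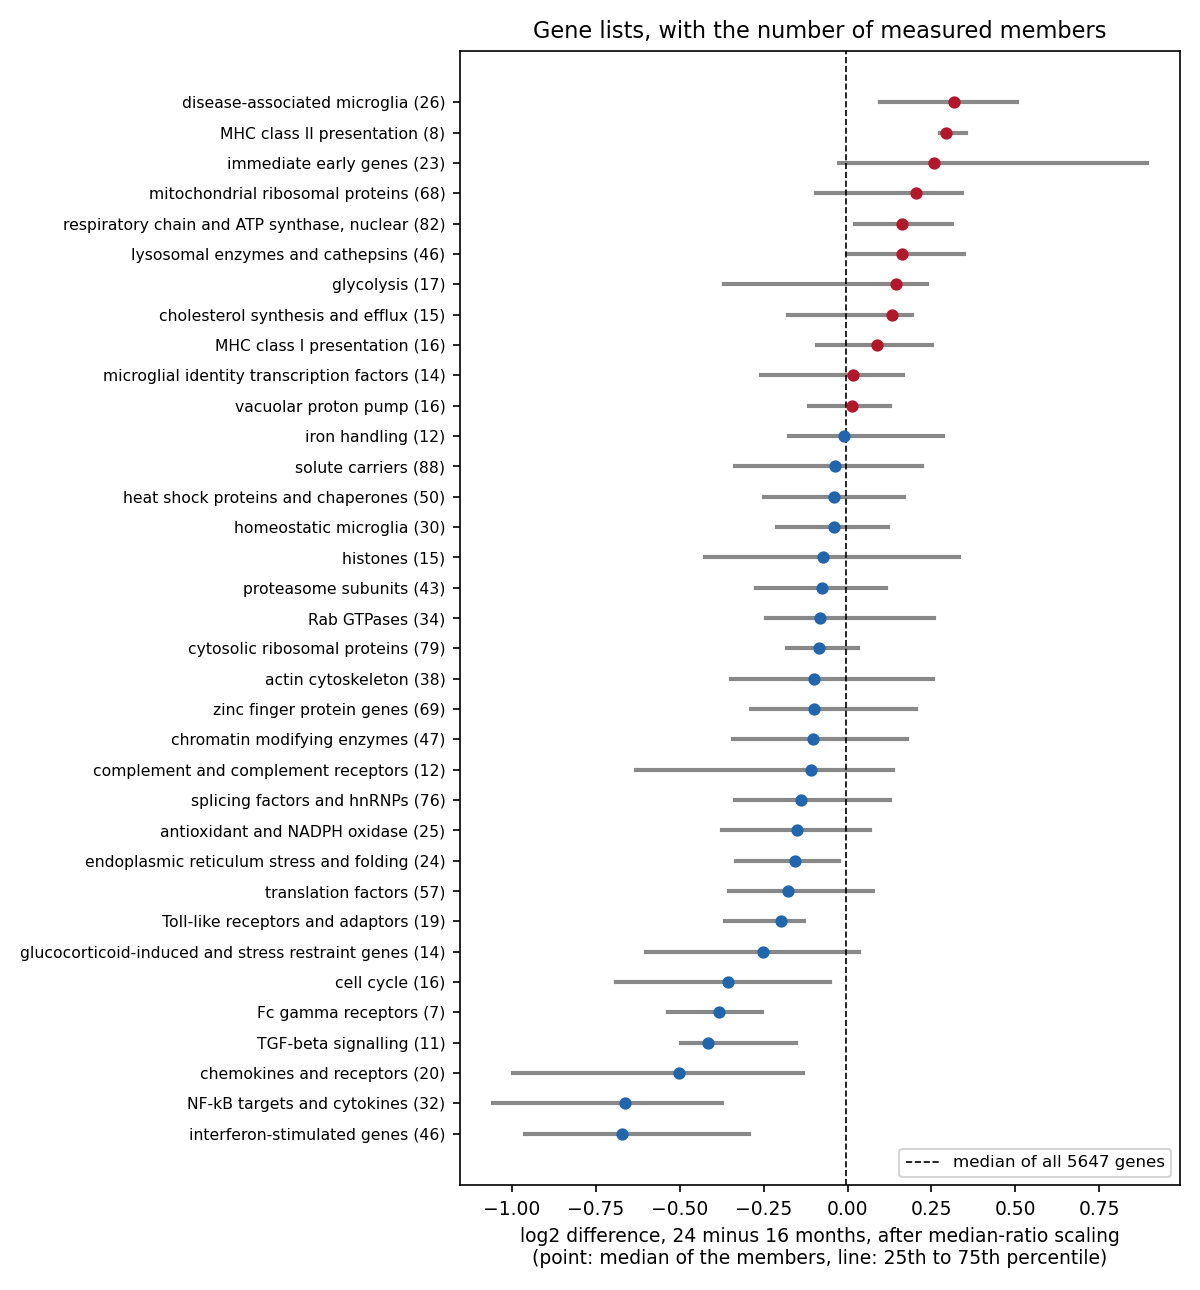
Median scaled log2 difference (24 minus 16 months) of the members of each pathway list (points, with lines over the 25th to 75th percentile of members) beside the median of all genes (dashed). Interferon-stimulated genes (−0.67) and NF-kB targets (−0.66) lie lowest of the pathway lists and disease-associated microglia genes (0.32) highest. Cell type markers are not plotted.

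Lysosomal genes lay slightly higher, with calls on the deposited scale alone. Of 46 lysosomal enzymes and cathepsins 34 had a positive scaled difference (median 0.16), and 3 were called without scaling, among them Ctsa and Cd68, and none with it. Ctsa, the protective protein of the lysosomal neuraminidase, stood at 905, 778 and 674 at 24 months, against 615, 399, 443, 505 and 497 at 16 months, without overlap (scaled difference 0.51, limma adjusted p = 0.0577). Glycolysis genes had a scaled median of 0.14 (17 genes, no call) and the vacuolar proton pump one of 0.01 (16 genes, Atp6v0d1 called without scaling).
Further lists lay below the median of all genes with few calls. All 11 measured genes of TGF-beta signalling had a negative scaled difference (median −0.42). Only Bmp2k, a kinase that BMP2 induces and that acts in endocytosis rather than in the SMAD pathway, was called, at 9, 9 and 10 against 20, 24, 19, 24 and 11. The 7 Fc gamma receptor genes had a median of −0.38, the 16 cell cycle genes −0.36 and the 19 genes of Toll-like receptors and adaptors −0.20, with no call under both scalings in any of them. Translation factors (40 of 57 negative, scaled median −0.18), endoplasmic reticulum stress and folding genes (19 of 24, −0.16) and splicing factors (49 of 76, −0.14) had no such call either. Among 38 genes of the actin cytoskeleton Actg1 was the 1 such call, among 12 complement genes it was C5ar1, and among 69 zinc finger protein genes it was Zfp65, at a log2 difference of −0.64. Over all genes 0.726% were called lower under both scalings.

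Microglial markers did not separate the ages, with summed values of 17240 to 20300 at 24 months and 15490 to 21120 at 16 months over 10 genes. Markers of endothelial cells (502 to 635 against 379 to 447 over 4 genes) and oligodendrocytes (56 to 71 against 41 to 48 over 2 genes) lay higher at 24 months without overlap, but after scaling the endothelial sums overlapped (450.7 to 588.1 against 390.4 to 452.8). Those of red blood cells (0.53 to 18 against 23 to 114 over 3 genes) lay lower. Markers of T and NK cells (249 to 376 against 116 to 331 over 4 genes) and astrocytes (69 to 111 against 72 to 115 over 3 genes) overlapped, and no neuronal marker was measured. B and plasma cell markers overlapped as well (85 to 186 against 42 to 139 over 2 genes). The 2 markers of choroid plexus and ependyma summed to 403, 0.54 and 315 at 24 months, against 6 to 118 at 16 months. The 24-month replicates 1 and 3 thus lay above every 16-month mouse and replicate 2 below. None of these lists other than neutrophils and border-associated macrophages had a member called under both scalings. Their part in the results was not tested.

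The other female ages place these differences. As a mean of scaled log2 values, 16 months was the lowest of the 7 ages for 27 of the 34 higher genes and the highest for 35 of the 41 lower genes, and 24 months was the highest for 20 and the lowest for 26. Over all genes 16 months was lowest for 14.9% and highest for 14.8%. The genes were chosen on the same 2 groups, so these counts only describe them. Il1rn averaged 3.5 ± 1, 6 ± 4.24, 7 ± 4, 8 ± 2.58, 10.6 ± 3.85, 75.2 ± 57.4 and 5 ± 1 at 3, 6, 9 and 12 months and then at 14, 16 and 24 months (SD, n = 4, 2, 3, 4, 5, 5 and 3). Its 24-month mean was thus near those of young mice and the 16-month mean stood apart. Srgn averaged 120 ± 9.54, 166 ± 64.3, 158 ± 52, 171 ± 14.5, 193 ± 24, 380 ± 102 and 136 ± 24.6 at the same ages, again with a peak at 16 months. Stoml1 averaged 24 ± 3.74, 14.5 ± 0.707, 20 ± 1.73, 21.5 ± 6.61, 19.6 ± 3.65, 9.6 ± 4.34 and 41.7 ± 10.7, so that 16 months was below and 24 months above all other ages. Apoe, by contrast, averaged 11670 ± 2146 at 24 months and between 3853 and 4977 at the 6 younger ages.
Against 14 months, a group that holds values between 0 and 1 as the 24-month group does, 110 genes were called without scaling (1.95%) with 103 higher (1.82%) and 7 lower (0.124%), and 0 after median-ratio scaling with limma, where 528 passed 0.05 and the fold before adjustment of p. Both comparisons share the 24-month libraries. On the scaled log2 scale the 34 higher genes had a median difference of 0.59 against 14 months, beside 0.94 against 16 months, and the 41 lower genes −0.69, beside −1.20. Since the genes were chosen with the same 24-month mice, these medians only describe them. Tgm2 averaged 39.6 ± 13.5 at 14 months and differed by −1.55 there, close to its −1.84 against 16 months on the same scale.

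In males the same ages differed in few genes. With 4 mice of each age, 4 genes were called without scaling (0.0708%), 2 in each direction (0.0354%), and 2 after it, both lower, Srgn and Hcar2 (0.0354%). Srgn averaged 290 ± 26.9 at 24 months and 590 ± 92 at 16 months in males (SD, n = 4 each, scaled log2 difference −1.10, limma adjusted p = 0.0088), in the direction of the females. Il1rn averaged 54.2 ± 44.9 at 24 months and 196 ± 93.1 at 16 months in males and was not called. Clec10a was called in males without scaling, with 23.5 ± 7.42 at 24 months and 8.25 ± 6.08 at 16 months (log2 difference 1.56, limma adjusted p = 0.0356). After scaling, 22 of the 34 genes higher in females and 28 of the 41 lower ones had the same sign in males, with medians of 0.05 and −0.20.
The difference between the sexes was tested as an interaction over 53 libraries, and 7 genes were called (0.124%), 3 with a more positive change in females (0.0531%) and 4 with a more negative one (0.0708%). Stoml1 had no such rise in males, which averaged 24 ± 2.94 at 24 months and 23.2 ± 7.46 at 16 months, and the female minus male change was 1.98 (standard error 0.41, limma adjusted p = 0.0294). Rgs3 averaged 21.2 ± 10.7 at 24 months and 33 ± 11.2 at 16 months in males, a female minus male change of 2.60 (standard error 0.50, limma adjusted p = 0.0216). For Lyn, at 250 ± 28.9 and 194 ± 17.5 in males of 24 and 16 months, it was −0.99 (standard error 0.20, limma adjusted p = 0.0294). Tnfsf13b, which encodes the B cell survival factor BAFF, stood at 48, 53 and 49 against 31, 16, 29, 32 and 41 in females and averaged 28.2 ± 4.35 against 47.8 ± 11 in males, a difference of 1.51 (standard error 0.32, limma adjusted p = 0.0384). With only the 16 libraries of these 2 ages in the fit, 0 genes were called, so the interaction calls rest on the spread shared with the other ages. Leaving out single mice gave between 0 and 10 calls, with 0 without 24-month female replicate 1, without 16-month female replicate 4 or without 16-month male replicate 1.

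**Figure D5:**
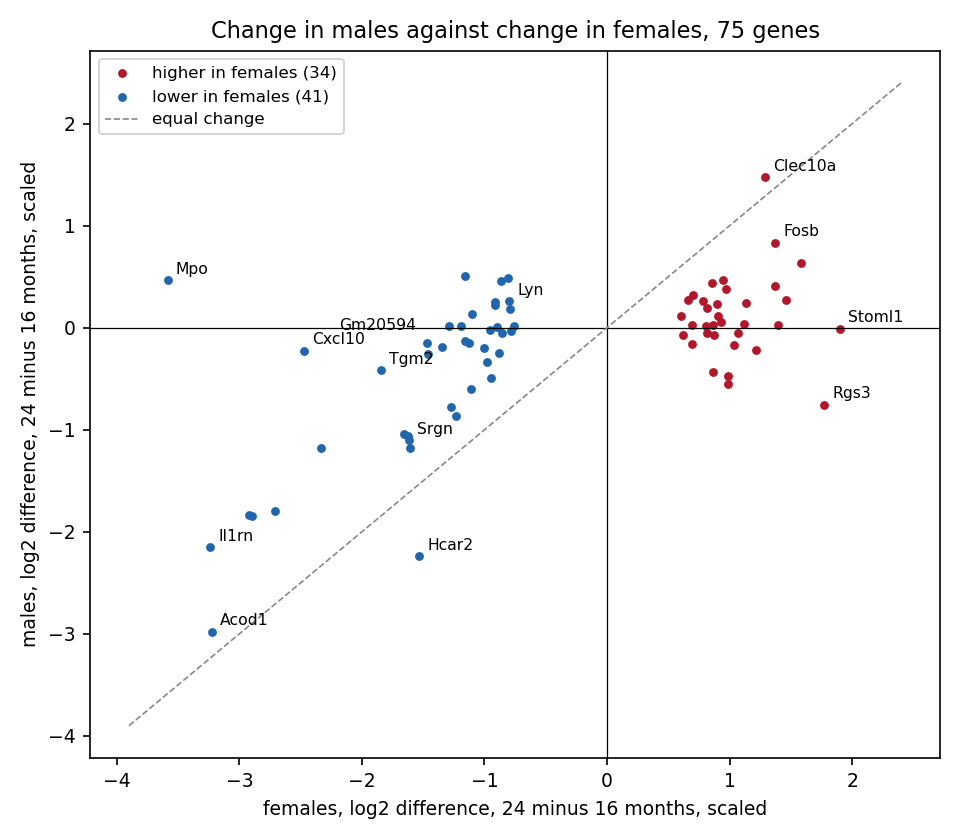
Scaled log2 difference of 24 minus 16 months in males (vertical axis) against that in females (horizontal axis) for the 75 genes called in females, red where higher and blue where lower in females, with a dashed line of equal change. Il1rn, Acod1, Srgn and Hcar2 lie below 0 in both sexes, while Stoml1 lies near 0 and Rgs3 at −0.75 in males.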

How the data were processed

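RNA of sorted microglia was sequenced from single mice, 1 library each, and aligned by the authors with HISAT2 2.0.4 (mm10) and, for the coding genes, with Bowtie2 2.2.5, and FPKM came from RSEM 1.2.12. The deposited values are a score, FPKM that the authors adjusted for batch with ComBat_seq and rounded (297 of 361408 values are not whole), after removing genes with a mean under 10. They are not counts, and read depth per library is unknown, so no interval or detection floor that needs it is given, and a change of composition cannot be told from a change of level. Batch adjustment fitted over all libraries can also move values of 1 age.

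Groups were taken from the sample labels. Values were analysed as log2(value + 1) in limma 3.58.1 (R 4.3.3) with a trend of variance with mean over the 26 PBS-treated female libraries, and for the interaction over 53 libraries in 14 groups of age and sex. Benjamini-Hochberg adjustment ran over all 5647 genes. Median-ratio factors came from genes above 0 in all libraries. Each library is 1 mouse, so p-values measure the spread between mice. Single values per library were tested by exact permutation (SciPy 1.17.1). Python 3.11.15 with pandas 2.3.3, numpy 2.4.6 and matplotlib 3.10.9 was used otherwise. On simulated data 68% of genes changed by 1 on the log2 scale and 98% of those changed by 2 were called (100 genes each), with 7 of 5447 unchanged genes called.

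Named genes were the 12 largest rises and 12 largest falls called under both scalings without overlap and with a higher group mean of at least 20, up to 3 genes per pathway list called under both scalings (overlapping or low ones included), and 14 state markers. Genes named beyond these 50, among them Gas6, Gna15, Lyn, Gpr84, Hsp90aa1 and Tnfsf13b, were chosen after their values were seen. The comparison, the 36 pathway lists and the 12 marker lists were chosen with earlier results of these data known. Promoters and positions came from RefSeq on GRCm38, and 4571 of the 5647 genes matched a promoter. Alternatives were the scaling, pseudocounts of 0.5 and 5, a mean of at least 50, the libraries in the fit, the variance model, the threshold, a replicate block and leaving out each mouse. Libraries treated with LPS were not used here, and the results of a few genes are not reported here.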

Additional observations from a re-analysis of the deposited data

Results flagged for a closer look

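The values of the 50 named genes were examined for a mouse far from the others of its age, which chance gives in about 1 of 20 groups. In 3 genes the highest of the 5 mice of 16 months stood apart. Abcc5 reached 40 in replicate 5, beside 23 to 27 in the other mice of that age, which left it below the 62 of the lowest 24-month mouse. Ndufv3 reached 85 in replicate 1, beside 52 to 59 in the others. P2ry12 reached 2419 in replicate 1, beside 929 to 1331 in the others.

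For 7 genes the change of 24 against 16 months differed between females and males in the interaction test. That test cannot tell sex apart from the feature of the female libraries described above. The female minus male change was 1.98 for Stoml1, 2.60 for Rgs3, 1.51 for Tnfsf13b and −0.99 for Lyn, as described above. It was −1.10 for Vmn1r58 (limma adjusted p = 0.0384), which averaged 13 ± 1 at 24 months and 22.8 ± 2.59 at 16 months in females, and 20.8 ± 4.79 and 16 ± 2.58 at these ages in males. For Asxl2, a chromatin regulator, it was −1.08 (limma adjusted p = 0.0409), with 5.67 ± 1.53 and 10.2 ± 0.837 in females of 24 and 16 months and 10.8 ± 0.957 and 8.5 ± 0.577 in males. For Gm38947 it was −1.27 (limma adjusted p = 0.0384), with 13 ± 1 and 22.2 ± 3.9 in females of 24 and 16 months and 20.5 ± 4.36 and 13.5 ± 1.29 in males (SD, n = 3 and 5 females, 4 males of each age).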

How the results depend on the processing

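The 223 genes called without scaling became 124 with median-ratio scaling, 95 with every library at the same total (31 higher, 64 lower), 120 among genes with a mean of at least 50 and 801 with an unadjusted p. The 75 called under both scalings became 31 with a mean of at least 50 and 459 with an unadjusted p. Without the 16-month mice richest in neutrophil markers (chosen after seeing the data) the counts were 68 and 20. Leaving out each mouse gave 24 to 176 and 14 to 68. The 7 interaction calls became 12 at the same total, 1 with a mean of at least 50, 0 with the 16 libraries of both ages, and 0 to 10 when each mouse was left out. Pseudocounts, variance models and a fit of the 8 libraries kept the first 2 counts within 1.5 times. The causes were not tested.

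Same-numbered mice did not deviate together (correlations of −0.246, −0.071 and −0.152), so the numbers do not pair the samples. With the replicate block the counts were 146 without scaling (118 higher, 28 lower), 50 under both scalings and 2 for the interaction.

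Of single genes, Cx3cr1 turned to −0.0055 at the same total. Cd74 became called in limma with a mean of at least 50 (adjusted p = 0.0443) and with the 8 libraries alone (adjusted p = 0.033). The ratio of library sums, 1.13, lay between 1.11 and 1.16 when mice were left out, where p cannot reach 0.05. In simulated data at this size 68% of genes changed by 1 on the log2 scale were called, so changes of that size can be missed.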
